A study of Mus musculus with 4 samples.

Results

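The liver transcriptome of mice with or without hepatocyte Mboat7 (also named Lpiat1) was measured on 4 one-colour Agilent arrays, and the quantity described here is the part of the diet response that differed between the genotypes. For each gene, the response is HFD minus chow on the log2 scale, and the difference of the responses is the response in LKO minus the response in F/F. A positive difference means that LKO moved further up, or less far down, than F/F. Of 56605 probes that are not controls, 27250 passed the filter of lying well above background on each of the 4 arrays, and these gave values for 13985 of the 23462 genes that the matched probes cover. The 4 groups were F/F chow, F/F HFD, LKO chow and LKO HFD, with 1 array each. All mice were male, on a C57BL/6 background, and 24 weeks old, and the diets were given for 18 weeks from the age of 6 weeks. F/F mice carry floxed Lpiat1 alleles without Cre, and LKO mice carry the same alleles with Alb-Cre. The albumin promoter that drives Cre is active in hepatocytes, and the paper describes the knockout as hepatocyte-specific. Whether other liver cells keep the gene cannot be seen in these arrays. Whether an array holds RNA of 1 mouse or of a pool is not stated. With 1 array per condition no difference has a replicate check, none was tested, and every value below describes these 4 arrays.

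Mboat7 encodes the acyltransferase that puts arachidonic acid onto lysophosphatidylinositol, and so sets which fatty acids phosphatidylinositol carries. A high-fat diet by itself makes hepatocytes store triglyceride, and in steatotic mouse liver the nuclear receptor PPAR gamma switches on lipid droplet genes that are otherwise typical of fat tissue. PPAR alpha, its relative, drives the burning of fatty acids. Prolonged fat feeding also brings monocyte-derived macrophages and lymphocytes into the liver and can start fibrosis.

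Signals are given relative to the array, with the 75th percentile of its spots set to 100. The Mboat7 probe had a relative signal of 497 on F/F chow, 449 on F/F HFD, 404 on LKO chow and 372 on LKO HFD, so its responses (-0.15 in F/F and -0.12 in LKO) left a difference of only 0.03. The array has 1 probe for the gene, and whether it lies within the floxed exons is not known here. The hepatocyte markers Alb, Apoa1, Ttr and Serpina1b passed the background filter on each array and were among the brightest probes. Their differences were -0.20, -0.20, -0.38 and -0.37. Before scaling, Alb had nearly the same signal throughout, with 231569 on F/F chow, 221091 on F/F HFD, 228565 on LKO chow and 222615 on LKO HFD. The 75th percentiles of these arrays were 222, 263, 213 and 296, so the negative value of Alb appears only after scaling. Replicate spots of a probe gave a technical SD of 0.0786 (log2) for the difference of the responses over 290 probes. Most of these replicated probes are bright, and the SD leaves out mouse-to-mouse variation. Different probes of one gene spread more, with an SD of 0.271 over 4787 genes. The share of genes past 2-fold was 10.2% in the dimmest of 4 equal groups of genes by signal and 1.83% in the brightest, so a large value of a dim gene has less behind it than the same value of a bright one.

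Responses in both genotypes ran in the same direction for 76.6% of the genes (Pearson r = 0.70 and Spearman rho = 0.68 across 13985 genes, which are not independent replicates). A response of at least 2-fold upward was found for 602 genes in F/F (4.3%) and 970 in LKO (6.94%), and downward for 307 (2.2%) and 463 (3.31%). The median difference of the responses was -0.05, with an interquartile range from -0.26 to 0.18. A difference of at least 2-fold was found for 340 genes in the positive direction (2.43%) and for 279 genes in the negative direction (1.99%). These 619 genes (4.43%) fall into classes by whether each genotype's own response reached 1.5-fold. The response was stronger in LKO for 320 genes, 205 with a difference in the positive and 115 in the negative direction. It was weaker in LKO for 229 genes, 90 positive and 139 negative. Both genotypes responded by at least 1.5-fold in opposite directions for 62 genes (0.443% of all genes), 41 of which were higher on HFD in LKO and lower on HFD in F/F. The remaining 8 genes reached 1.5-fold in neither genotype. The plot of responses shows these classes on both sides of the diagonal.

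**Figure D1:**
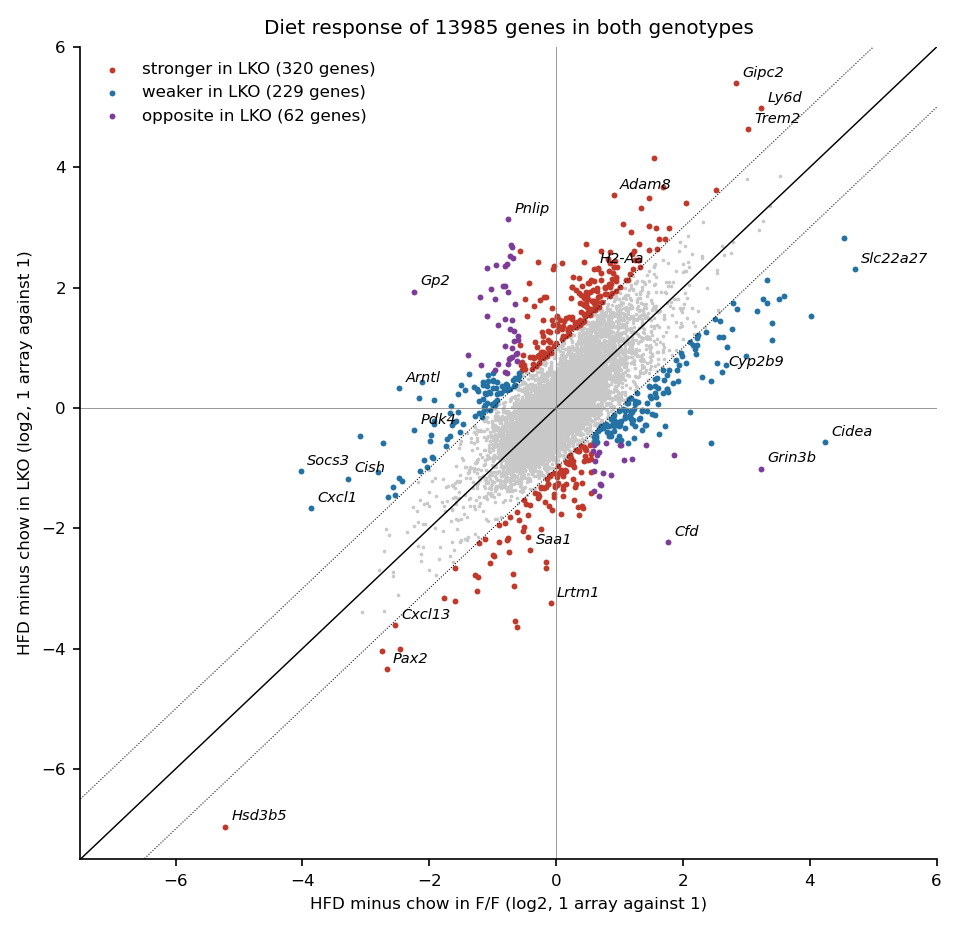
Each point is a gene, with HFD minus chow (log2) in F/F on the x axis and in LKO on the y axis, 1 array per condition. The solid diagonal marks equal responses and the dotted lines a 2-fold difference, and coloured points past them are the 320 stronger, 229 weaker and 62 opposite responses in LKO. Cidea, Grin3b and Cfd lie farthest below the diagonal, and Gp2 and Pnlip lead the opposite responses at the upper left.

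Because the difference is built from 4 arrays, a single array can produce it. An array was said to stand alone where its distance to the nearest of the other 3 exceeded the range of those 3. This was so for 373 of the 619 genes (60.3%). LKO HFD stood alone for 184 of them (118 above and 66 below the rest), F/F HFD for 91 (59 above and 32 below), F/F chow for 57 (27 above and 30 below) and LKO chow for 41 (22 above and 19 below). In 108 genes the arrays crossed, that is, F/F chow and LKO HFD lay together on one side and the other two on the other side. In the other 138 genes no array stood out and the values were graded. Over all 13985 genes LKO HFD was also the array that most often stood alone (20.6%), while LKO chow did so for 5.34%, F/F HFD for 8.89% and F/F chow for 8.99%. The arrays crossed for 6.16% of all genes and were graded for 50.1%. Seen by diet, 245 of the 619 genes differed at least 2-fold between LKO and F/F on HFD only, 76 on chow only and 23 on both diets. The genotypes differed by less than 2-fold on each diet in the other 275 genes, whose difference adds up from opposite gaps on chow and on HFD.

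**Figure D2:**
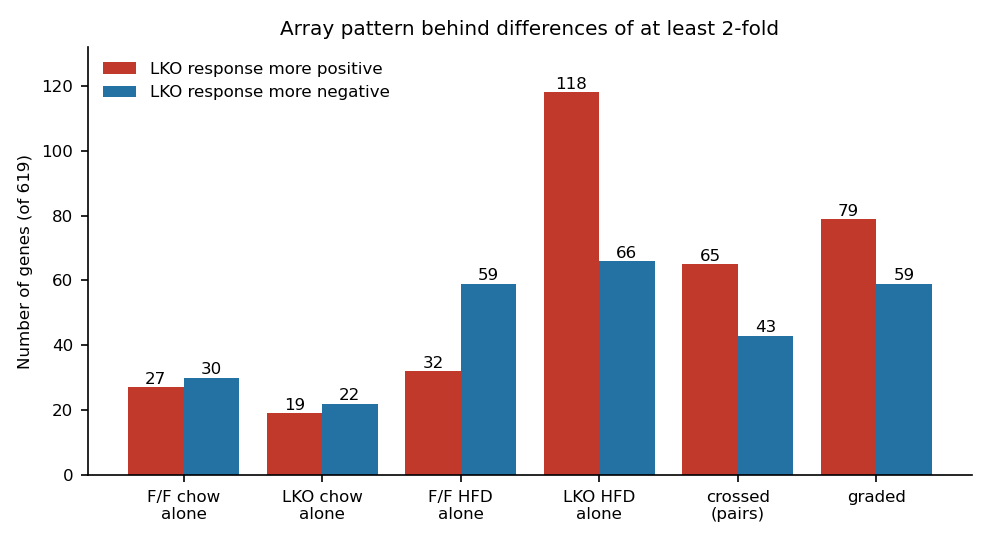
Bars count the 619 genes with a difference of at least 2-fold (y axis) by the array that stands apart from the other 3 (x axis), with genes whose arrays cross or grade at the right. Red bars are genes with a more positive response in LKO and blue bars those with a more negative one. The LKO HFD array stands alone most often, with 118 and 66 genes.

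Lipid droplet and fat-tissue genes held the lowest difference of all genes, that of Cidea. Cidea, which enlarges lipid droplets and is typical of brown fat, had a relative signal of 133 on F/F chow, 2514 on F/F HFD, 1228 on LKO chow and 831 on LKO HFD. It was thus far higher on HFD in F/F (response 4.24) and lower in LKO (-0.56), a difference of -4.80. The F/F chow array stood alone here, and LKO on chow had a signal between those of the HFD arrays. Cidec, a related droplet protein, went from 1142 to 5641 in F/F and from 2772 to 3977 in LKO, and its difference of -1.78 again rested on the low F/F chow array. Pparg itself showed the same form, 368 and 995 in F/F on chow and HFD against 778 and 746 in LKO, with a difference of -1.50. For Mogat1, an enzyme that rebuilds diacylglycerol and a PPAR gamma target, the signals were 76.1 on F/F chow, 493 on F/F HFD, 165 on LKO chow and 334 on LKO HFD. Both HFD arrays were higher than both chow arrays, and the larger response in F/F (2.70 against 1.01) gave a difference of -1.68. Its second probe gave -2.50. Vldlr, a receptor for triglyceride-rich lipoproteins, was also higher on HFD in both genotypes, and less so in LKO (responses of 2.11 and 1.09).

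Not every droplet gene followed. Of the 23 measured genes for lipid droplet proteins and lipolysis, 15 had a negative difference and 8 a positive one, with a median of -0.43 against -0.05 over all genes, and 6 reached 2-fold in the negative and 1 in the positive direction (1.99% and 2.43% of all genes). G0s2, an inhibitor of the lipase ATGL, was lower on HFD in both genotypes and more so in LKO (-0.97 and -2.46). Lpl, the lipoprotein lipase that lipid-laden macrophages also make, was the exception in the other direction. Its signal went from 201 to 371 in F/F and from 217 to 956 in LKO, with LKO HFD alone at the top and a difference of 1.26, and its other probes gave 1.17 and 1.15. Plin2, the main coat protein of droplets in hepatocytes, had nearly the same signal on all arrays (15110.3 to 15710.1 in F/F and 14107 to 15224 in LKO).

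Cfd, the complement protease adipsin, differed in another way. Its relative signal was 562 on F/F chow, 1902 on F/F HFD, 596 on LKO chow and 127 on LKO HFD. The chow arrays were close to each other, F/F HFD was the highest and LKO HFD the lowest, so the responses were opposite (1.76 and -2.23) and the difference was -3.99. The second probe of Cfd gave -4.02. The genes of the adipocyte list did not move as a block. Of its 20 measured members, 12 had a negative and 8 a positive difference (median -0.31), and 9 of the list's genes are shared with the droplet list. Adipoq, the fat hormone adiponectin, had signals of 31.4 on F/F chow, 9.93 on F/F HFD, 15.1 on LKO chow and 15.4 on LKO HFD, which gives a positive difference of 1.69 from a high F/F chow array. Plin1, a defining fat cell marker, passed the background filter on F/F chow only.

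Targets of PPAR alpha made a second group, mirrored in sign. Pdk4, the kinase that spares glucose by blocking pyruvate dehydrogenase, went from 771 to 163 in F/F and from 385 to 297 in LKO. Ehhadh, a peroxisomal beta-oxidation enzyme, had 5622 on F/F chow, 1923 on F/F HFD, 2668 on LKO chow and 2536 on LKO HFD. The F/F chow array stood alone above the rest, with responses of -1.55 in F/F and -0.07 in LKO. The omega-hydroxylase Cyp4a10 went from 5771 to 1811 in F/F and from 3939.8 to 2846 in LKO (difference 1.20), and its other probes gave 1.34 and 1.46. Cyp4a31 gave 1.19 and the thioesterase Acot1 1.09. In each of these 5 genes the signal on HFD was lower than on chow in F/F by more than 2-fold, and in LKO the chow signal was already below that of F/F. Acot2, the mitochondrial thioesterase, was the only one of the list with opposite responses of at least 1.5-fold, with 377 on F/F chow, 238 on F/F HFD, 229.6 on LKO chow and 499 on LKO HFD. Near-identical sequences within the Cyp4a and Acot families can share a probe, so these genes may not be separate measurements. The rest of the list went the other way by small amounts. Of 35 measured genes for fatty acid oxidation and PPAR alpha targets, 6 were at least 2-fold positive and 0 negative (2.43% and 1.99% of all genes), yet 22 lay below 0 and the median was -0.16. Ppara had the lowest difference of the list (-0.81), with 5243 on F/F chow, 5775 on F/F HFD, 5994 on LKO chow and 3770.0 on LKO HFD, followed by Cpt1a (-0.59), which admits long-chain fatty acids to mitochondria.

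Among the genes whose response was weaker in LKO, Socs3, Cxcl1 and Cish were the named genes with the lowest response in F/F. Socs3, an inhibitor of JAK kinases and of the interleukin-6 receptor, had a relative signal of 3189 on F/F chow, 196 on F/F HFD, 983 on LKO chow and 473 on LKO HFD. The order ran from F/F chow down to F/F HFD, and the responses were -4.03 and -1.06. Cish, an inhibitor downstream of growth hormone, went from 957 to 98.1 in F/F and from 552 to 244 in LKO, and Socs2, which acts on the same receptor, from 291 to 43.8 in F/F and from 175 to 116 in LKO. The second probe of Socs2 gave 2.13, next to 2.14 for the first. Socs1 (1.56) and the kinase Pim1 (1.31), also induced by STAT factors, and the growth regulator Myc (1.37) had the same sign, although Socs1 was slightly higher on HFD in LKO (0.31). Socs1, Socs2, Pim1 and Myc were picked out after their values were seen. Cxcl1, the neutrophil-attracting chemokine, behaved alike with 10358 on F/F chow, 711 on F/F HFD, 5195 on LKO chow and 1632 on LKO HFD, a difference of 2.20. In Socs3, Cish, Socs2 and Cxcl1 the F/F HFD array was the lowest and the F/F chow array the highest.

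Other growth hormone-responsive liver genes split. Hsd3b5, a steroid dehydrogenase of male liver, was lower on HFD in both genotypes (3984 on F/F chow, 107 on F/F HFD, 1874 on LKO chow and 15.1 on LKO HFD), and by more in LKO. Its difference of -1.74 became -0.66 with normexp background correction, which compresses a signal as low as that on LKO HFD. Cyp2b9, a cytochrome of female liver, was high on F/F HFD only, with 836 on F/F chow, 5123 on F/F HFD, 555 on LKO chow and 838 on LKO HFD, and its difference was -2.02. The fatty acid hydroxylases Cyp4a12a (1.05) and Cyp4a12b (1.21), typical of male liver, were lowest on F/F HFD. Nudt7, a peroxisomal coenzyme A hydrolase, was lowest on LKO HFD (-1.16). Of 31 measured genes in the list, 28 were lower on HFD in both genotypes, 4 had a difference of at least 2-fold in the positive and 3 in the negative direction (2.43% and 1.99% of all genes), and the median difference was -0.26.

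Genes of MHC class II antigen presentation were higher on HFD in both genotypes and more so in LKO in 11 of 11 measured cases, where 43.7% of all genes had a difference above 0. The promoters below are shown as examples that hold the motif, since class II genes share an upstream block that ends in an inverted CCAAT box (the Y box). Each line is the 150 bases before the RefSeq transcription start (GRCm38.p6), 5′ to 3′ on the gene's strand, with CCAAT or its reverse complement ATTGG in capitals.
H2-Aa (chr17:34287824-34287973, minus strand): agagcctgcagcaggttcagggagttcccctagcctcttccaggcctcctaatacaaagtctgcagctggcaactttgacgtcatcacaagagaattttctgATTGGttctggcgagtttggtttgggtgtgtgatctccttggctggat
H2-Eb1 (chr17:34305717-34305866, plus strand): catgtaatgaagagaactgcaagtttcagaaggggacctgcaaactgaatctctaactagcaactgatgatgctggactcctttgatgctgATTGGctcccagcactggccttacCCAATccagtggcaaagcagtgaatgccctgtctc
H2-DMb1 (chr17:34153041-34153190, plus strand): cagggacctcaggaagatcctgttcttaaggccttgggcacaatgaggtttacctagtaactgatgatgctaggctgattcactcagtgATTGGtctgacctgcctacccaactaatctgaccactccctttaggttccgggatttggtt
The motif nearest to the start begins 48 bases before it in H2-Aa, 35 in H2-Eb1 and 61 in H2-DMb1. In H2-Eb1 that nearest motif is CCAAT in the forward direction, and the inverted copy begins 59 bases before the start. Within 250 bases before the start, 4 of the 8 promoters of the 7 class II genes in the promoter table have CCAAT on either strand. So do 33.8% of all 32851 promoters, so the letters alone do not set the genes apart. H2-DMa has 2 starts in the table, and the window before one of them holds no CCAAT.

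H2-Aa, the alpha chain of I-A, had a relative signal of 216 on F/F chow, 325 on F/F HFD, 154 on LKO chow and 762 on LKO HFD. Its partner chain H2-Ab1 had 2084 on F/F chow, 3050.2 on F/F HFD, 1499 on LKO chow and 6576 on LKO HFD. H2-Eb1, the I-E beta chain, went from 1707 to 2710.1 in F/F and from 1236 to 6154 in LKO, and Cd74, the invariant chain that escorts class II molecules, from 841 to 1113 in F/F and from 626 to 2536 in LKO. In these 4 genes LKO HFD stood alone above the rest and LKO chow was the lowest array. The differences were 1.71, 1.58, 1.65 and 1.62, and the other 3 probes of H2-Ab1 gave 1.66 to 1.97. The peptide loading factors H2-DMa (1.44) and H2-DMb1 (1.58) were similar, whereas Ciita, the master transactivator of the class, had a smaller difference (0.66, and 0.78 with its second probe). Ctss, the protease that trims the invariant chain, gave 0.89, and the costimulatory ligand Cd80 0.20. The list's median was 1.44, where F/F had a median response of 0.66 and LKO one of 2.02, and it was 0.96 when dim genes were kept in.

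Macrophage genes had the same sign as the class II genes. Of 31 measured genes of monocytes and macrophages, 29 had a positive difference (43.7% of all genes), 30 were highest on LKO HFD, and the median was 0.77. LKO HFD was also the highest array for 30 of 34 genes of stellate cells and myofibroblasts, so that count is not particular to macrophages. The Fc receptor Fcgr1 went from 36.5 to 68.3 in F/F and from 30.2 to 143 in LKO. The integrin Itgax, found on dendritic cells and macrophages, went from 10.4 to 59.7 in F/F and from 13.4 to 166 in LKO. Both genes were higher on HFD in both genotypes, whereas the lipopolysaccharide receptor Cd14 went from 231 to 212 in F/F and from 235 to 467 in LKO, so that LKO HFD alone was high. Trem2, the lipid receptor of macrophages in fatty liver, had 16.6 on F/F chow, 134 on F/F HFD, 25.5 on LKO chow and 633 on LKO HFD. It was far higher on HFD in both genotypes (responses of 3.02 and 4.63), with a difference of 1.61. Cd63 (1.19), a protein of lysosome-related vesicles, the proton pump subunit Atp6v0d2 (1.39) and the tetraspanin Cd9 (1.04) were likewise higher, but Spp1 (osteopontin), of the same lipid-associated macrophage list, responded nearly alike in both genotypes (1.73 and 1.91). This list had 6 of 23 genes at least 2-fold positive (2.43% of all genes) and a median of 0.20. In bulk RNA, more cells of a type and more RNA per cell cannot be told apart.

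Kupffer cell genes, the markers of resident macrophages, diverged among themselves. The scavenger receptor Marco had 3089 on F/F chow, 2619 on F/F HFD, 2098 on LKO chow and 839 on LKO HFD, and Timd4, a receptor for dying cells that marks long-lived Kupffer cells, 68.6 on F/F chow, 64.0 on F/F HFD, 71.8 on LKO chow and 33.1 on LKO HFD. In both, LKO HFD alone was low, and the differences were -1.08 and -1.02. Cd163, the haemoglobin scavenger receptor, gave -0.67 with one probe and -0.02 with the other. The langerin gene Cd207 went the opposite way, from 66.8 to 79.7 in F/F and from 73.0 to 295 in LKO (difference 1.76). So did the complement genes C1qa, C1qb and C1qc (0.79, 0.82 and 0.71). The transcription factors Id3 (0.95) and Spic (0.91) had positive differences too, but neither was highest on LKO HFD. For Id3, F/F HFD alone was low (388, against 751 on LKO HFD). For Spic, LKO chow alone was low (51.8, against 87.0 on LKO HFD). Clec4f, a marker restricted to Kupffer cells, was little different (0.12), and the list's median was 0.36 over 17 genes.

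Lymphocyte genes had the third highest list median, 0.96 over 26 measured genes of T and NK cells, with 12 at least 2-fold positive and 0 negative (2.43% and 1.99% of all genes). The T cell receptor subunit Cd3g had 12.1 on F/F chow, 10.6 on F/F HFD, 7.08 on LKO chow and 25.5 on LKO HFD. Its partner Cd3d had 38.8 on F/F chow, 32.8 on F/F HFD, 33.4 on LKO chow and 63.5 on LKO HFD. LKO HFD alone was high for both, the differences were 2.05 and 1.17, and the second probe of Cd3d gave 1.73. The granzymes Gzma (1.24) and Gzmb (1.22), the granule protein Nkg7 (1.38), Cd8b1 (1.21), Il7r (1.49) and the chemokine Ccl5 (1.55) pointed the same way. For Cxcr6, a homing receptor of liver lymphocytes, F/F HFD alone was low, with 43.2 on F/F chow, 20.6 on F/F HFD, 33.5 on LKO chow and 45.6 on LKO HFD. Other members did not share the pattern, among them the 3 with the highest mean signal of the list (Zap70, Cd4 and Cd247). The T cell receptor subunits Cd3e and Cd247 gave 0.18 and -0.01, the coreceptor Cd4 -0.05 and the kinase Zap70 -0.86. With normexp background correction, which compresses dim genes, the list's median was 0.36. Klrb1c (NK1.1) had 1.54 with one probe and -0.08 with the other. Genes of B and plasma cells had a median of 0.31 over 12 genes, led by Jchain (1.32), which joins secreted antibodies, and followed by Mzb1 (0.85), Bank1 (0.81) and Cd79b (0.48), while Cd79a was not well above background on any array.

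Among chemokines and their receptors, 7 of 31 genes were at least 2-fold positive and 1 negative (2.43% and 1.99% of all genes). That one was Cxcl13, the B cell attractant, with 385 on F/F chow, 66.4 on F/F HFD, 92.2 on LKO chow and 7.52 on LKO HFD. It was lower on HFD in both genotypes, and its difference of -1.08 became 0.03 with normexp background correction. Ccl17 crossed, with 17.6 on F/F chow, 8.35 on F/F HFD, 8.97 on LKO chow and 13.1 on LKO HFD. Interferon-stimulated genes were positive in 31 of 34 cases (43.7% of all genes), by a median of 0.34, led by Oasl2 (1.15), Ifi44 (1.08) and Ifit1 (1.03). LKO chow was the lowest array for 22 of the 34. The list's median LKO minus F/F value was -0.36 on chow and 0.12 on HFD. For Ifit1 LKO chow alone was low, and Ifi44 and Ifit1 fell to as low as 0.42 and 0.51 under other processing. Irf1, an interferon-induced transcription factor, reached 1.02, with its lowest value on F/F HFD. Of the 33 measured Toll-like receptor and TNF pathway genes, 4 were at least 2-fold positive and 3 negative (2.43% and 1.99% of all genes), and the median was 0.23. In all, 21 lay above 0 and 12 below, and the lowest difference was -1.28. The ones at least 2-fold positive were Tlr6, Tlr8, Tnfaip3 and Relb, with differences of 1.55, 1.18, 1.05 and 1.03. Tlr6 and Tlr8 are dim and fell to as low as 0.30 and 0.51 under other processing. For Relb, LKO chow alone was low.

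Matrix and duct genes gave a mixed picture. Of 21 measured collagens, 13 were higher on HFD in both genotypes, 5 were lower in both and 3 had responses of opposite sign, with a median response of 0.84 in F/F, a median response of 1.01 in LKO and a median difference of 0.03. Col1a1, the main fibrillar collagen chain, went from 22.1 to 150.3 in F/F and from 34.2 to 204 in LKO. All 34 measured genes of stellate cells and myofibroblasts were higher on HFD in both genotypes, where 46.8% of all genes were so in F/F and 41.1% in LKO, and their median difference was 0.08. Among them Ccn1 responded less in LKO (2.19 and 0.97), and the ligands Tgfb2 and Tgfb3 responded more (differences of 1.02 and 1.02). Without replicates this does not show that the responses were equal. Of 25 measured matrix proteases and their inhibitors, 18 had a positive and 7 a negative difference, from -0.79 to 3.17 with a median of 0.24. At least 2-fold were 4 positive and 0 negative (2.43% and 1.99% of all genes). Adam8, found on myeloid cells, went from 26.1 to 49.1 in F/F and from 14.3 to 166 in LKO. Adamts4 went from 23.8 to 43.5 in F/F and from 17.1 to 71.0 in LKO, and Adamts9 had a difference of 1.55. Adamts4 and Adamts9 fell to as low as 0.68 and 0.94 under other processing. The 14 measured cholangiocyte genes had a median of 0.28, with 3 at least 2-fold positive and 0 negative (2.43% and 1.99% of all genes). Cdh1 (E-cadherin) had 70.3 on F/F chow, 51.3 on F/F HFD, 63.7 on LKO chow and 183 on LKO HFD, with LKO HFD alone high. Krt19 gave 0.96 and the marker Krt7 0.25, while Epcam was well above background on only 2 arrays. Tff2 gave 1.43 with LKO chow alone low, and fell to as low as 0.42 under other processing. Sox9 was lowest on F/F HFD, with 65.5 on F/F chow, 17.2 on F/F HFD, 39.2 on LKO chow and 32.6 on LKO HFD, and its probes gave 1.67 and 0.80.

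**Figure D3:**
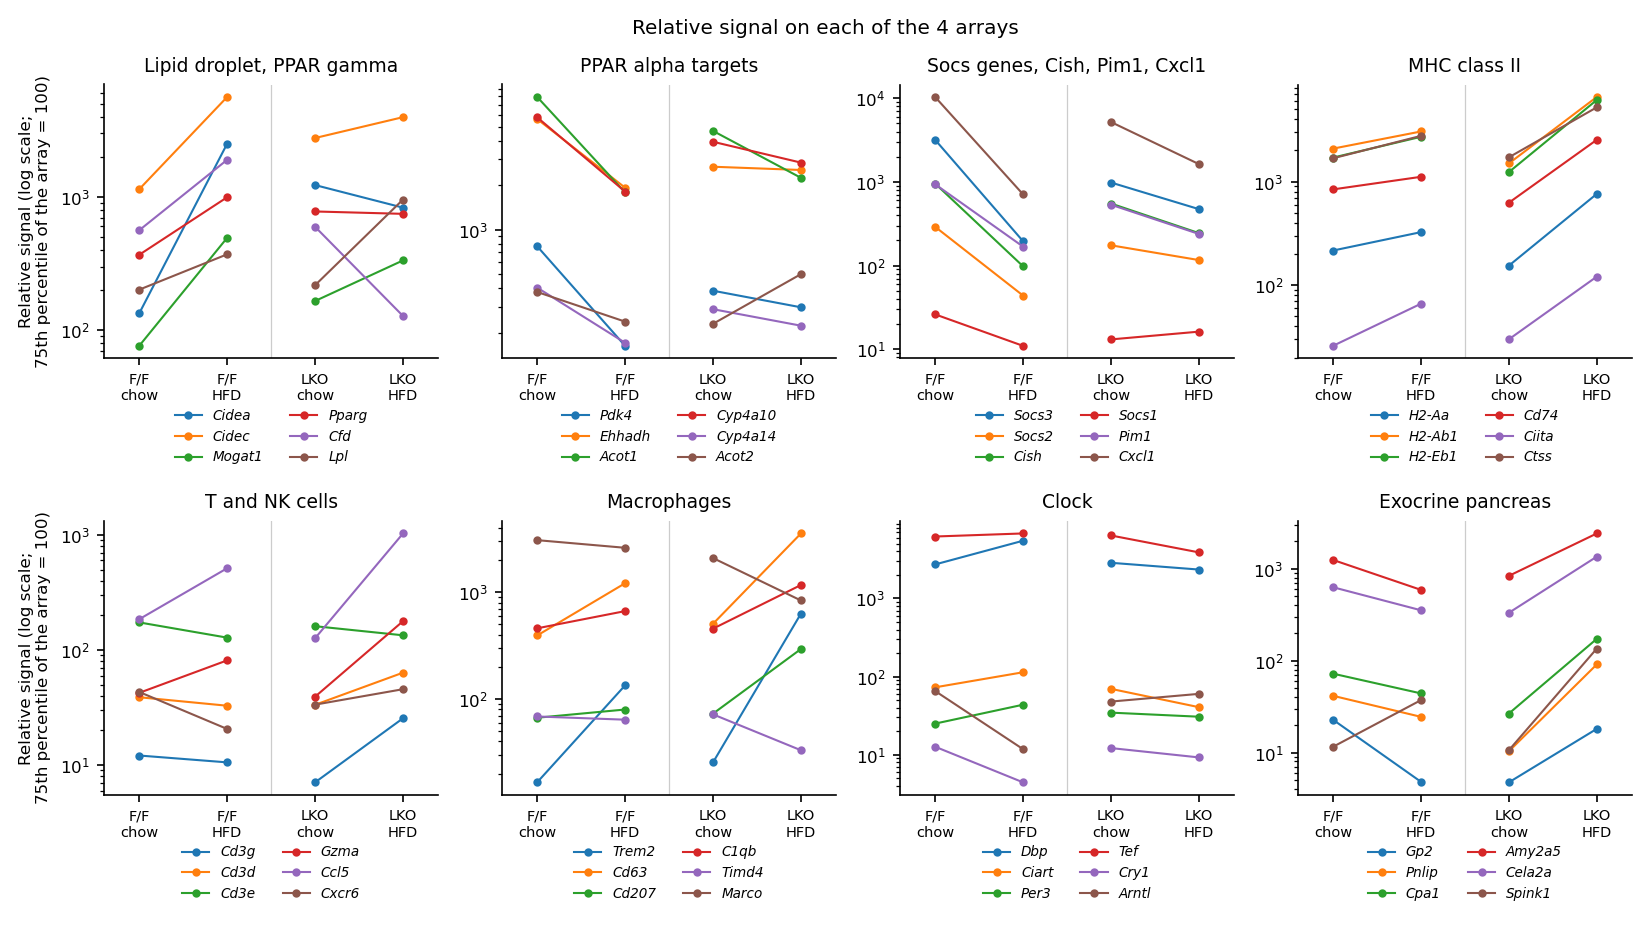
Relative signal on each array (log axis, 75th percentile of the array set to 100) for 6 genes of each of 8 groups, with chow and HFD joined by a line within each genotype. Lines that slope differently on the left (F/F) and right (LKO) of a panel make the difference of the responses. The droplet genes start higher in LKO on chow, PPAR alpha targets and Socs genes start lower, and the class II genes end highest on LKO HFD.

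Metabolic genes of hepatocytes had small negative differences in many members. Bright genes as a whole lay below 0, with a median of -0.20 and 80.8% negative in the brightest of 10 equal groups by signal, so these lists share their sign with other bright genes. All 46 measured nuclear-encoded subunits of the respiratory chain lay below 0 (range -0.46 to -0.11, median -0.30), where 56.3% of all genes did, 45 of them were lowest on LKO HFD, and none reached 2-fold. All 46 were in the brightest of the 4 groups by signal. The 62 cytosolic ribosomal protein genes, also all in that group, lay above 0 in 51 cases (median 0.09). Of 32 genes of the urea cycle and amino acid breakdown, 29 were negative with a median of -0.42, 28 were lowest on LKO HFD and none reached 2-fold. Hal, which starts histidine breakdown, had 3677 on F/F chow, 2909.6 on F/F HFD, 2598 on LKO chow and 1296 on LKO HFD, and the differences of Oat, Hpd and Cth were -0.66, -0.66 and -0.61. Glucose genes had a median of -0.34 over 25 members. G6pc, the glucose-6-phosphatase that releases glucose into the blood, crossed, with 3822 on F/F chow, 7993 on F/F HFD, 6174 on LKO chow and 3392 on LKO HFD and opposite responses (1.06 and -0.86). Pcx, Tat and Sds gave -0.61, -0.55 and -0.55.

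Detoxifying enzymes held larger single changes. Of 32 measured genes of cytochrome P450 family 2, 29 were negative (median -0.30) and 3 reached 2-fold (1.99% of all genes). Cyp2b10, the classic target of the receptor CAR, had 1803 on F/F chow, 4809 on F/F HFD, 1283 on LKO chow and 836 on LKO HFD, a difference of -2.03. Its second probe gave -1.69, from responses of 0.12 in F/F and -1.57 in LKO. Cyp2d40 stood alone low on LKO HFD (10045 on F/F chow, 12541 on F/F HFD, 8309 on LKO chow and 3466 on LKO HFD), and Cyp2c38 was lower on HFD in both genotypes (-1.63 and -2.56). Sulfotransferases Sult5a1 (-1.27, second probe -0.55) and Sult1b1 (-1.17) were lowest on LKO HFD too. The organic anion transporters Slc22a29 and Slc22a27 were dim on chow and highest on F/F HFD. Slc22a29 went from 7.31 to 118 in F/F and from 9.07 to 26.1 in LKO, and Slc22a27 from 6.26 to 163 in F/F and from 10.7 to 52.9 in LKO. As close relatives they may share probes.

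Acute phase proteins had a median of -0.24 over 27 members, and the serum amyloid genes led them. Saa1 had 39609 on F/F chow, 29776 on F/F HFD, 66998 on LKO chow and 13032 on LKO HFD, and Saa2, whose sequence is nearly the same, 65276 on F/F chow, 45374 on F/F HFD, 94637 on LKO chow and 22926 on LKO HFD. LKO chow was the highest array and LKO HFD the lowest in both. Orm3 was high on F/F HFD only (-1.14). The fibrinogen chains Fgb and Fgg were lower on HFD in both genotypes, with differences of 0.02 and -0.09. Stress genes split too. Of the ATF4 list, the transcription factor Atf3 (responses of 3.51 in F/F and 1.82 in LKO), the stress hormone Gdf15 (2.20 and 0.90) and Ddit4 (1.70 and 0.81) responded less in LKO, whereas the serine and folate enzymes Psat1 (1.01), Phgdh (1.04) and Mthfd2 (1.13), all dim, were positive.

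Of 19 measured clock genes 13 had a negative difference and 6 a positive one, and the median was -0.62. In mammals CLOCK and BMAL1 (encoded by Arntl) bind E-boxes in the genes of their own repressors, so Arntl and the output genes peak at opposite times of the day. The promoter of Ciart, a repressor of this circuit, is shown because it had the lowest difference of the list. The line holds the 150 bases before the RefSeq start (GRCm38.p6, 5′ to 3′ on the gene's strand), with the E-box CACGTG in capitals.
Ciart (chr3:95882229-95882378, minus strand): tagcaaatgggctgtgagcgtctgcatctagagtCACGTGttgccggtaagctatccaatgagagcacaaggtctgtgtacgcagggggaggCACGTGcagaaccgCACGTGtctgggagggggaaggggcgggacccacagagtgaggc
It holds the motif 3 times. CACGTG occurs within 250 bases before the start in 5 of the 20 promoters of clock genes in the promoter table (4 of 15 genes). It does so in 6.02% of all 32851 promoters, and Dbp has none in that window.
Ciart had a relative signal of 72.8 on F/F chow, 114 on F/F HFD, 69.7 on LKO chow and 40.6 on LKO HFD, with LKO HFD alone low and a difference of -1.42 (second probe -1.79). Dbp, a clock-driven transcription factor, had 2721 on F/F chow, 5470.1 on F/F HFD, 2857 on LKO chow and 2341 on LKO HFD, with F/F HFD alone high and a difference of -1.29 (second probe -1.39). Tef (-0.85), Usp2 (-0.81), Per3 (-0.98), Nr1d2 (-0.67) and Hlf (-0.64) were negative as well. Arntl went the other way, with 65.4 on F/F chow, 11.8 on F/F HFD, 47.9 on LKO chow and 60.1 on LKO HFD, so that F/F HFD alone was low and the difference was 2.80. Cry1 (1.12), Nfil3 (0.74) and Clock (0.45, second probe 1.05) had the sign of Arntl. Per2 is uncertain, with -1.12 by one probe and -0.26 by the other. The hour at which each liver was taken is not given in the labels, and its part in these values was not tested.

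The largest list difference belonged to genes of the exocrine pancreas. All 24 measured members were positive, 22 of them at least 2-fold (against 2.43% of all genes), and the median was 2.85, where F/F had a median response of -0.78 and LKO one of 2.03. Cpa1, a carboxypeptidase of pancreatic juice, had 72.2 on F/F chow, 44.0 on F/F HFD, 26.6 on LKO chow and 173 on LKO HFD, and the amylase Amy2a5 had 1249.6 on F/F chow, 590.2 on F/F HFD, 838 on LKO chow and 2427 on LKO HFD. The second probe of Amy2a5 gave 0.01. The granule protein Gp2 (4.18), the lipases Pnlip (3.90) and Pnliprp1 (3.37), the lectin Zg16 (3.42), the elastase Cela3a (3.26) and the trypsins Prss2 (3.17), Try4 (3.05) and Try5 (3.0) followed, as did Reg1 (2.76), and the trypsin genes are close copies. The defining marker Prss1 was not well above background on any array. Mmp7, a matrix protease outside the list, had 47.5 on F/F chow, 29.6 on F/F HFD, 19.2 on LKO chow and 108 on LKO HFD. The arrays crossed for 13 of the 24 genes (6.16% of all genes), and LKO HFD stood alone for 10 (20.6% of all genes). The summed relative signal of the list was 6679 on F/F chow, 3757 on F/F HFD, 4268 on LKO chow and 8384 on LKO HFD. Whether these transcripts came from liver cells or from adjoining tissue in the samples was not tested. With normexp background correction the median was 1.62. Without the list, 318 genes stayed at least 2-fold positive and 279 negative.

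Blood cell genes had the lowest list median, -0.92 over 10 genes, with 9 negative and 2 at least 2-fold, against 1.99% of all genes. Hba-a1, a haemoglobin chain, had 6959.6 on F/F chow, 15120.1 on F/F HFD, 6857 on LKO chow and 7640.3 on LKO HFD, with F/F HFD alone high, and Hba-a2 (near-identical) had a difference of -1.0. Alas2, which starts haem synthesis in red cells, had 2144 on F/F chow, 1603 on F/F HFD, 2117 on LKO chow and 834 on LKO HFD, so here LKO HFD was low, as for the erythroid factor Klf1 (-0.99, second probe -0.55). The platelet gene Pf4 had the opposite sign (0.64). With normexp background correction the list's median was -0.61.

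Genes outside these lists filled the remaining extremes. Grin3b, a glutamate receptor subunit, was high on F/F HFD only, with 6.33 on F/F chow, 59.6 on F/F HFD, 16.9 on LKO chow and 8.40 on LKO HFD. Lrtm1, a membrane protein with leucine-rich repeats, was low on LKO HFD only, with 172 on F/F chow, 162 on F/F HFD, 115 on LKO chow and 12.1 on LKO HFD. Gpc1, a heparan sulfate proteoglycan, was high on F/F HFD only, with 548 on F/F chow, 1979 on F/F HFD, 605 on LKO chow and 352 on LKO HFD. The sulfate transporter Slc13a4 (-3.02) and the laminin chain Lamb3 (-2.04, second probe -1.48) were also highest on F/F HFD, and the melanin-concentrating hormone receptor Mchr1 (-2.50) was lowest on LKO HFD. Myl1, a muscle light chain, was high on LKO chow only (-1.97), and shrank to -0.53 under other processing. The strongest responses in LKO upward were those of Gipc2 (5.40 against 2.84 in F/F), Ly6d (4.98 against 3.24), Trem2 and Epdr1 (4.15 against 1.54), and LKO HFD stood alone for Gipc2 and Epdr1. Downward they were those of Hsd3b5, Pax2 (-4.35 against -2.67), Serpina4-ps1 (-4.04 against -2.74) and Mc2r (-4.01 against -2.46). The differences of Serpina4-ps1 and Mc2r shrank to -0.71 and -0.60 under other processing. The second probe of Pax2 gave 0.35, so its value rests on 1 probe. Where a chow array stood alone, the largest gaps to the other arrays, with the difference of the responses in brackets, were those of Tmem89 (2.62), Ripk2 (2.33), Gal3st1 (-1.44) and Cidea for F/F chow, and those of Acod1 (1.90), Nos1ap (-1.84), B3galt1 (-1.69) and Dennd2c (-1.40) for LKO chow. Most of these are dim on some array. Under other processing Tmem89, Ripk2 and Gal3st1 shrank to 0.94, 0.49 and -0.67. Acod1, Nos1ap and Dennd2c shrank to 0.30, -0.83 and -0.62, and B3galt1 only to -1.41. The Acod1 signal on LKO chow, 8.49 before scaling, was close to the array's lowest signal well above background (8.09). Ttc39a was, after Slc22a27, the gene with the next largest upward response in F/F among those weaker in LKO (4.55 against 2.82). Its difference of -1.73 shrank to -0.39 under other processing. Ripk2, a kinase of NOD receptors, had 25.0 on F/F chow, 5.56 on F/F HFD, 5.57 on LKO chow and 6.22 on LKO HFD. B3galt1, a galactosyltransferase, had 162 on F/F chow, 119 on F/F HFD, 468 on LKO chow and 106 on LKO HFD, and its second probe gave -1.91.

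**Figure D4:**
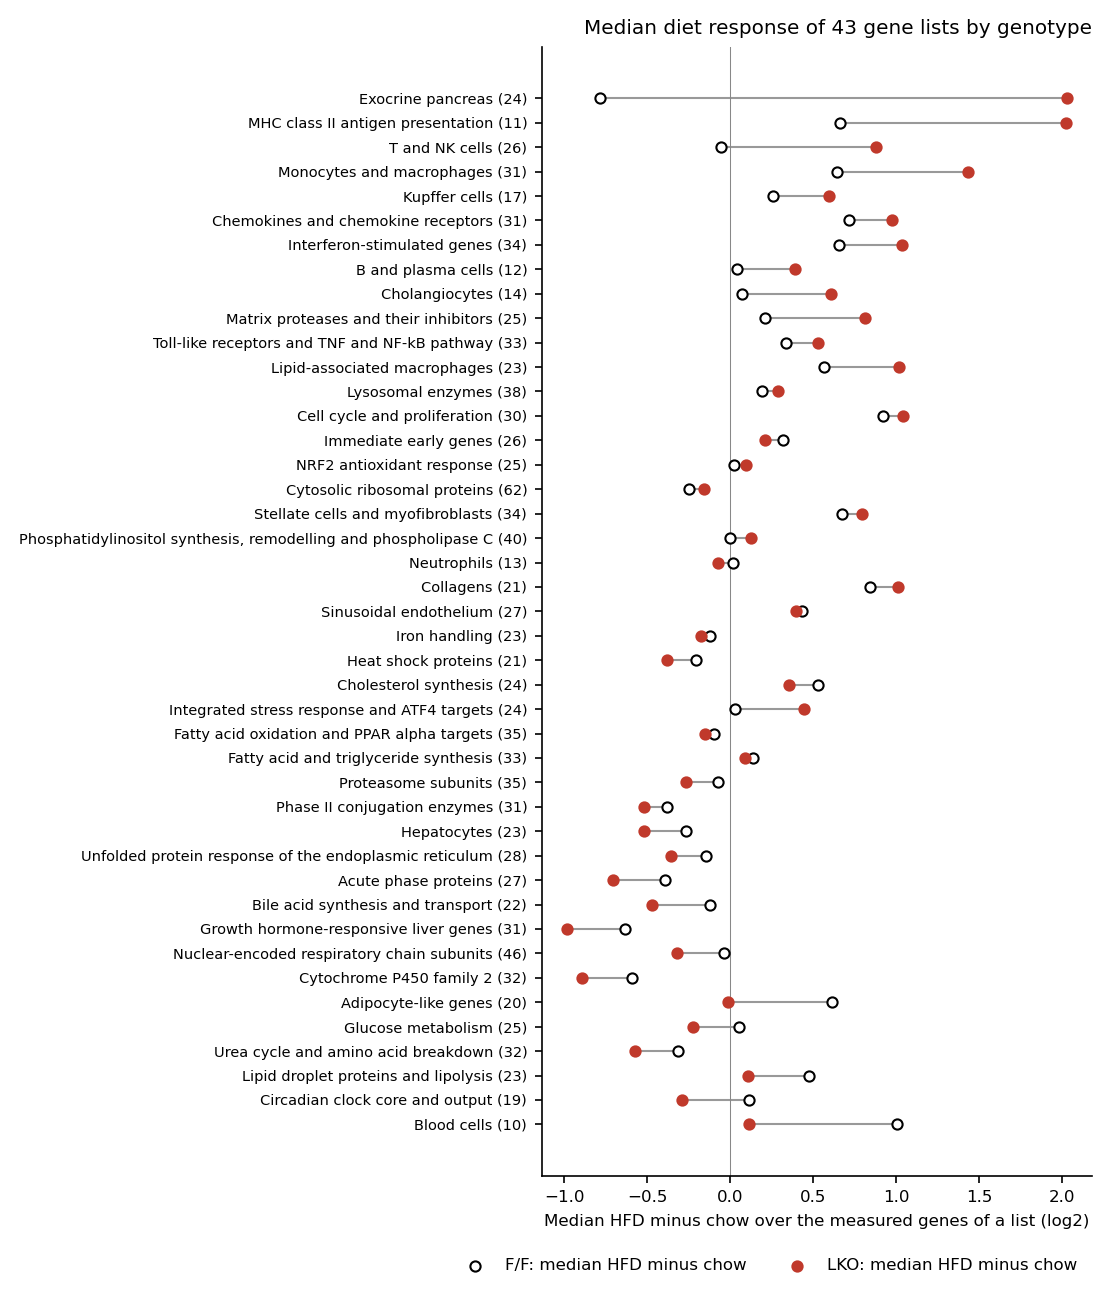
For each of 43 gene lists (number of measured genes in brackets), the open circle is the median HFD minus chow (log2) in F/F and the red circle that in LKO, sorted by the median difference of the responses. The pancreas list spans -0.78 to 2.03 and the class II list 0.66 to 2.02, while collagens and stellate cell genes are at nearly the same place in both genotypes.

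Of the 43 lists, 19 had a median at least 0.25 away from that of all genes, and the other 24 ranged from -0.30 to 0.18. Among these were fatty acid and triglyceride synthesis (-0.17), cholesterol synthesis (-0.10), the unfolded protein response (-0.21), proteasome subunits (-0.19), lysosomal enzymes (0.18), cell cycle genes (0.13), the NRF2 response (0.11), neutrophil genes (0.03), sinusoidal endothelium (-0.04), iron handling (-0.08) and bile acid genes (-0.25). Genes of phosphatidylinositol synthesis and remodelling and phospholipase C, the pathway of the deleted enzyme, had a median of 0.07 over 40 members, with 2 at least 2-fold positive (2.43% of all genes). These were the acyltransferase Mboat1 (1.65), with LKO HFD alone high, and the phospholipase Plcd3 (1.64, second probe 0.77), with F/F chow alone high.

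Signal strength and second probes set how much each value can carry. Of the 619 genes, 106 had further probes that passed the filter. In 94 of them every other probe had the same sign, and in 53 every other probe also reached 2-fold in the same direction. Normexp background correction, which adds 50 to each signal and so compresses dim genes, kept the sign in 617 of 619 genes but left 184 at 2-fold or more. Cidea, Cfd, Socs3 and H2-Aa then had -4.55, -3.78, 2.79 and 1.75, while the dim genes Grin3b, Mchr1, Gp2 and Ripk2 went to -2.13, -0.73, 1.14 and 0.49. Genes not well above background on some array have no difference here. Among them, 466 were well above background on LKO HFD only, 188 on F/F chow only, 176 on F/F HFD only and 78 on LKO chow only. LKO HFD was also the brightest array, with 57.0% of spots well above background and a 75th percentile of 296. LKO chow was the dimmest, with 53.0% and 213. F/F chow had 54.2% and 222, and F/F HFD 54.6% and 263. The part of array brightness in these counts was not tested. Cd300lb, a myeloid receptor of the lipid-associated macrophage list, was at least 3.77-fold higher on LKO HFD than on any other array. Collagens went both ways. Col24a1 was at least 7.42-fold higher on F/F HFD and Col6a6 at least 5.22-fold higher on LKO HFD. Col23a1, Col4a6 and Col5a2 were also well above background on LKO HFD only, close to the floor. The bound takes, for each other array, the higher of the gene's own signal and the lowest signal well above background.

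**Figure D5:**
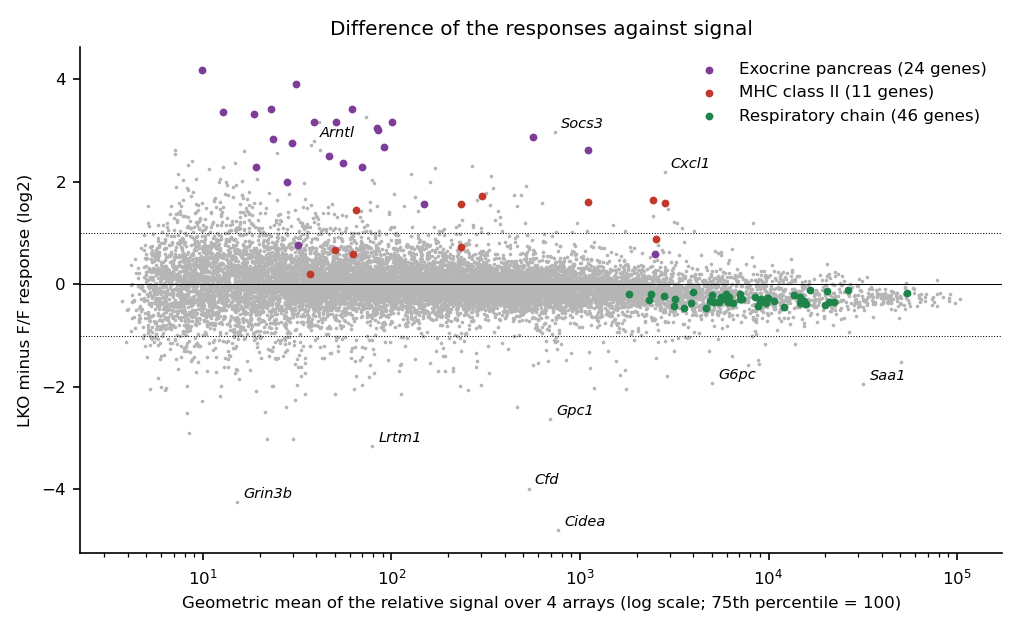
The difference of the responses (log2, y axis) is plotted for each gene against the geometric mean of its relative signal over the 4 arrays (log axis), with dotted lines at 2-fold. Grey points fan out at low signal and drift below 0 at high signal. Pancreas genes (24, purple) and class II genes (11, red) lie above 0 and respiratory chain subunits (46, green) below it.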

How the data were processed

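Liver RNA was hybridised to 1-colour Agilent arrays (Cy3), 1 per condition and all 4 on 1 slide. The authors deposited the scanner output of Agilent Feature Extraction 12.0.3.1 (version from the submitters' notes), and its processed signal, an intensity on a linear scale, was used. Each array's log2 processed signal was reduced by its own 75th percentile. Spots of a probe were averaged, and a gene was represented by its brightest probe that was well above background on each array. The deposited value table, also intensities, served as an alternative. Percent shares and fold changes were computed from these values, and no test was possible with 1 array per condition. The arithmetic was tested on simulated data. Python 3.11.15, pandas 2.3.3, numpy 2.4.6, R 4.3.3 and limma 3.58.1 (normexp) were used.

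Genes and gene lists were chosen with earlier results of these data known. Named were Mboat7, the 8 highest and 8 lowest differences, the 6 clearest opposite responses in each direction, the 4 largest gaps for each lone array, the 4 leading members of each list whose median lay 0.25 or more from that of all genes, defining markers, and the 4 largest stronger and weaker responses in each direction. Provisional symbols were not named, and some genes that meet the rule are not reported here. All other genes named were chosen after their values were seen. Between 53.0% and 57.0% of an array's spots passed the background filter, and having 1 array per condition bounds the precision.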

Additional observations from a re-analysis of the deposited data

Results flagged for a closer look

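For the genes below both genotypes responded to the diet in opposite directions by at least 1.5-fold, and with 1 array per condition the difference was not tested. Among genes of the exocrine pancreas, the difference of the responses was 4.18 for Gp2, 3.42 for Zg16, 3.05 for Try4, 3.0 for Try5, 2.76 for Reg1 and 2.62 for Amy2a5, all higher on HFD in LKO and lower in F/F. The other direction was seen for Grin3b (-4.25), Cfd (-3.99), Gpc1 (-2.64), Lamb3 (-2.04), Myl1 (-1.97) and G6pc (-1.93). Among lists, the median responses differed in sign for the exocrine pancreas (2.85), T and NK cells (0.96), the circadian clock (-0.62) and glucose metabolism (-0.34), where each value is the median difference of the responses over the list. The F/F medians of the last 3 were near 0 (-0.05, 0.11 and 0.05), and the difference was not tested.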

How the results depend on the processing

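No paired analysis was possible because each condition has 1 array and no label carries a replicate number. Every value rests on 4 arrays, and dim genes moved with the background handling. The 340 positive and 279 negative genes became 1008 and 936 at 1.5-fold, 49 and 26 at 4-fold, 580 and 570 when every probe counted, 1565 and 1519 without the background filter, 93 and 93 with normexp, and 123 and 130 with a signal of at least 50 on all arrays. Stronger, weaker and opposite responses numbered 1407, 1080 and 537 without the filter, 97, 70 and 15 with normexp, and 120, 99 and 30 at a signal of at least 50, and 7 responses stayed opposite when each had to reach 2-fold. The arrays LKO HFD, F/F HFD, F/F chow and LKO chow stood alone for 81, 45, 22 and 15 genes (195 crossed, 261 graded) when the gap had to exceed 2 times the range, for 656, 493, 433 and 496 (659, 347) without the filter, for 75, 37, 8 and 6 (28, 32) with normexp, and for 82, 46, 10 and 9 (48, 58) at a signal of at least 50. The list medians that moved were, without the filter, adipocyte -0.16, B and plasma cell 0.15, chemokine 0.59, clock -0.52, pancreas 2.72 and class II 0.96. With normexp they were adipocyte -0.19, B and plasma cell 0.10, blood -0.61, pancreas 1.62, lipid droplet -0.30, lipid-associated macrophage 0.29, class II 1.07, monocyte and macrophage 0.67, and T and NK cell 0.36. Quantile normalization moved cytochrome P450 family 2 to -0.22 and glucose metabolism to -0.21. A signal of at least 50 gave adipocyte -0.47, chemokine 0.48, pancreas 2.62 and Kupffer cell 0.47. Cxcl13 turned from -1.08 to 0.035 with normexp. Normexp compresses dim signals by construction, and the cause of the other moves was not tested. Scaling by another percentile or the median of the bright probes, the deposited value table and the mean of all probes moved none of these counts or medians beyond its limit, and 602 of the 619 genes stayed past 2-fold the same way with quantile normalization. Leaving out the pancreas list, chosen after seeing the data, gave 318 and 279 genes.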
